A study of Mus musculus with 36 samples.

Results

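Gene expression in the left ventricle of SHAM-operated mice was compared between 2 successive times of the day, ZT19 and ZT15. The arrays were those whose titles name a SHAM heart at ZT19 or at ZT15, which gave 3 arrays per time and 6 of the 36 arrays in the series. The series measured messenger RNA on Affymetrix expression arrays in left ventricles taken 8 weeks after transverse aortic constriction (TAC, a narrowing of the aorta that loads the left ventricle with pressure) or after a SHAM operation. Mice were killed at 6 times, 4 h apart, with 3 biological replicates for each of the 12 groups of operation and time. The SHAM ZT19 and SHAM ZT15 mice share the operation, the tissue and the interval after surgery, and are labelled as normal hearts. TAC ZT19 and TAC ZT15, labelled as diseased, are used here for the same interval of the day after the other operation. ZT stands for zeitgeber time, hours counted from a time cue, usually lights on. Light schedule, strain, sex and age were not stated in the labels, so day and night are not assigned to these times.

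The heart holds its own circadian clock. CLOCK and ARNTL (BMAL1) activate genes through short promoter sequences called E-boxes, among them the Per and Cry genes, whose products repress that activation, and Nr1d1 and Nr1d2, whose products REV-ERB alpha and beta repress Arntl through other sequences called ROR elements. Output factors of the clock, such as the PAR bZIP proteins DBP, TEF and HLF, carry the rhythm to further genes. In the mouse heart, fasting and feeding, glucocorticoids, body temperature and autonomic tone also vary over the day.

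All values are relative expression on a log scale, taken as log2, where 0 is the median of a probe set over the 18 SHAM arrays. Levels can therefore be compared between arrays for 1 gene, and not between genes, and the presence of cardiomyocyte markers in the tissue could not be checked by level. The medians of the 6 arrays over all probe sets were between -0.00641 and -0.00137. Of the 18 SHAM arrays, ZT11 replicate 3 had a mean of 2.03 over thymocyte markers and ZT23 replicate 3 a mean of 1.07 over airway markers. The ZT19 and ZT15 arrays had means between -0.05 and 0.01 for the thymocyte list and between -0.05 and 0.14 for the airway list.

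Of 12393 genes, 36 (0.29%) differed between SHAM ZT19 and SHAM ZT15 at an adjusted p under 0.05 in limma, with the spread taken from all 18 SHAM arrays. At ZT19, 27 genes (0.218%) were lower and 9 (0.0726%) were higher. The falls were between -0.24 and -1.32 on the log2 scale, and the rises between 0.22 and 0.80. The median size over the 36 genes was 0.495, and 10 of them, 8 falls and 2 rises, reached a fold of 1.5. Over all genes the median difference was 0.00217, the median size 0.0366 and the median standard error 0.0621. At an unadjusted p under 0.05, 281 genes (2.27%) were higher and 266 (2.15%) lower at ZT19. The excess of falls among the called genes was thus not seen in the counts at this looser threshold, nor in the genes whose 3 ZT19 values all lay above (839, or 6.77%) or all below (671, or 5.41%) the 3 ZT15 values.

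The list of called genes was short and depended on single arrays. It held 10 genes without SHAM ZT19 replicate 2 or without SHAM ZT15 replicate 2, 11 without SHAM ZT19 replicate 1 or without SHAM ZT15 replicate 3, 21 without SHAM ZT19 replicate 3 and 31 without SHAM ZT15 replicate 1. With the spread of all 36 arrays it held 7, of which 6 were among the 36. Without the SHAM arrays high in thymocyte or airway markers it held 38, of which 34 were among the 36. The 8 genes called without any 1 of the 6 arrays were Dbp, Cebpb, Nr1d1, Tspan4, Midn, Slc43a3, Per2 and Timp3. For the other 28 the call ended without at least 1 of them.

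**Figure D1:**
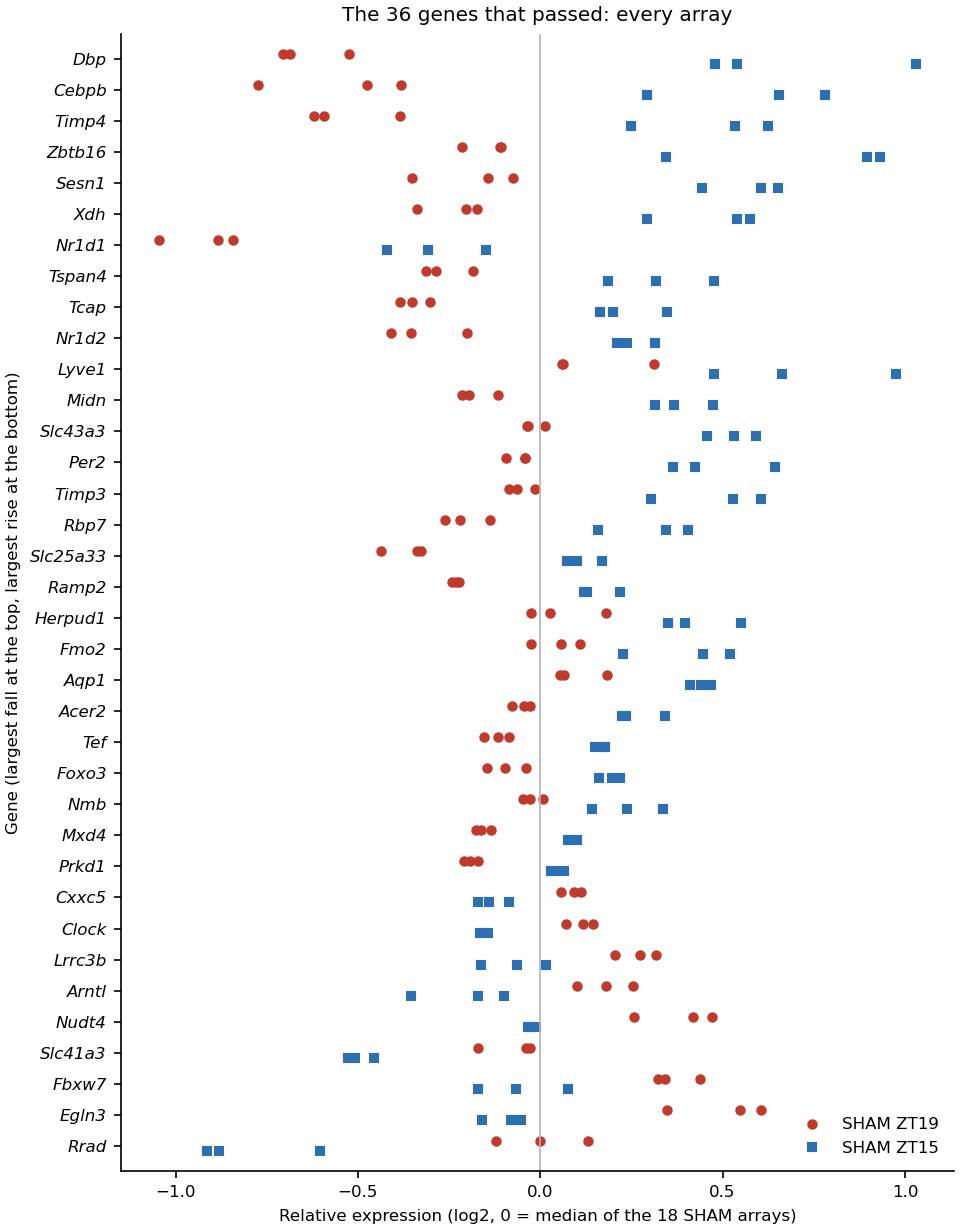
Relative expression (log2, x axis) of the 36 called genes on every array, with SHAM ZT19 as circles above SHAM ZT15 as squares in each row. Genes run from the largest fall, Dbp at -1.32, at the top to the largest rise, Rrad at 0.80, at the bottom, and in each of the 36 rows the 3 circles and the 3 squares do not overlap.

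The promoter sequences of 4 called genes of the core clock and clock output lists are shown because E-boxes and ROR elements are the sequences through which the clock acts. The motif was chosen for each gene, and only starts that held it are printed. They come from RefSeq on the mouse build GRCm38.p6, in which 27 of the 36 called genes were matched. Each of the first 4 runs holds the 150 bases before a transcript start, read 5′ to 3′ on the gene's strand, and capitals mark the motif. Tef and Tspan4 carry the E-box CACGTG, which reads the same on both strands, with its first base 127 and 138 bases before 2 starts of Tef and 51 bases before a start of Tspan4. Nr1d1 carries the related CACGTT, here on the opposite strand, 28 bases before a start. The last run is a site of 30 bases after a start of Arntl, with the ROR element core ANTAGGTCA beginning 28 bases after it.
Nr1d1 chr11:98775378-98775527, minus strand: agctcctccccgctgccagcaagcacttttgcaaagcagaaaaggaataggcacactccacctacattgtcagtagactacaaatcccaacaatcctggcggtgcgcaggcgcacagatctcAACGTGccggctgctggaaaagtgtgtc
Tef first start chr15:81802523-81802672, plus strand: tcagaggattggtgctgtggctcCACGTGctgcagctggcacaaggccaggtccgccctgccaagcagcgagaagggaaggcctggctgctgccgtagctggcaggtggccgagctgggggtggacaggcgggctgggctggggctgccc
Tef second start chr15:81811264-81811413, plus strand: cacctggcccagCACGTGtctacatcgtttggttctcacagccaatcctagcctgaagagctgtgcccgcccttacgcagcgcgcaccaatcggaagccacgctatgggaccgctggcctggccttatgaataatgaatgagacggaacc
Tspan4 chr7:141476230-141476379, plus strand: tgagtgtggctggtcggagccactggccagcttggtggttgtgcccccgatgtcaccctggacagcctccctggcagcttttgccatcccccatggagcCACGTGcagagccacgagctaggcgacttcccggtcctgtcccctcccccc
Arntl chr7:113207529-113207558, plus strand: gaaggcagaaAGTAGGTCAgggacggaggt

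Of the 27 matched genes, 3 had CACGTG within 150 bases before a start, and 4.92% of all 27025 genes in the RefSeq table did. Of all 32851 windows of that length, 4.30% held CACGTG and 2.29% CACGTT on either strand, and the ROR core was in 0.661% of all windows of 300 bases around a start. These matches describe letters in a window and were not tested for binding.

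Dbp, Nr1d1, Nr1d2, Per2, Tspan4 and Tef were lower at ZT19, and Arntl and Clock were higher. Of 15 measured members of the core clock list, 3 fell (Nr1d1, Nr1d2 and Per2) and 2 rose (Arntl and Clock). The median difference of the list was -0.08. At an unadjusted p under 0.05, 7 members were lower and 3 higher, against 2.15% and 2.27% of all genes. This list and those below were chosen with earlier results of these data known. Of 13 measured clock output genes, 3 fell (Dbp, Tef and Tspan4), none rose, and 12 of 13 were lower at ZT19, with a median of -0.32.

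Dbp, a PAR bZIP transcription factor gene driven by CLOCK and ARNTL, had the largest fall. Its relative expression was -0.69, -0.53 and -0.70 at SHAM ZT19, against 0.48, 0.54 and 1.03 at SHAM ZT15. The ZT15 mice differed more among themselves, with replicate 3 well above the others, and no ZT19 value came near them. The difference was -1.32 ± 0.15 (SE), a fold of 0.400 (limma adjusted p = 6.21e-04). Tef, which encodes a related PAR bZIP factor, was at -0.09, -0.15 and -0.12 at SHAM ZT19, against 0.18, 0.18 and 0.15 at SHAM ZT15. The 3 mice of each time lay close together, and the fall was -0.29 ± 0.05 (adjusted p = 0.0179). Tspan4, which encodes a tetraspanin of the cell membrane, was at -0.29, -0.19 and -0.31 at ZT19 and at 0.32, 0.19 and 0.48 at ZT15. Its fall of -0.59 ± 0.07 had the same adjusted p as that of Dbp. Hlf, the remaining PAR bZIP gene, was lower at ZT19 by a difference of -0.31 and did not pass (adjusted p = 0.144). The deubiquitinase gene Usp2 (-0.32, adjusted p = 0.162) did not pass either.

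Nr1d1 was at -0.88, -1.04 and -0.84 at SHAM ZT19, against -0.31, -0.42 and -0.15 at SHAM ZT15. All 6 values lay below the daily median, and those of ZT19 were the lower. The fall was -0.63 ± 0.08 (adjusted p = 0.00216), and the ZT19 mean of -0.92 was the lowest of the 6 times. Nr1d2 was at -0.35, -0.41 and -0.20 at ZT19 and at 0.24, 0.32 and 0.21 at ZT15, a fall of -0.57 ± 0.11 (adjusted p = 0.0253). Unlike Nr1d1 it was still above its daily median at ZT15 in each of the 3 mice. Its mean was lower again at ZT23, at -0.81.

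Per2, a repressor of CLOCK and ARNTL, was at -0.04, -0.04 and -0.09 at SHAM ZT19, against 0.36, 0.64 and 0.42 at SHAM ZT15. The ZT19 mice were nearly alike, and the fall was -0.54 ± 0.07 (adjusted p = 0.00216). Its paralogues gave differences of -0.41 ± 0.12 for Per1 and -0.12 ± 0.05 for Per3, neither of which passed (adjusted p = 0.331 and 0.933). Per1 overlapped between the times, since ZT19 replicate 1 (-0.06) lay above ZT15 replicate 3 (-0.12).

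Arntl, which encodes the partner of CLOCK, was at 0.18, 0.26 and 0.10 at SHAM ZT19, against -0.17, -0.10 and -0.35 at SHAM ZT15. The ZT19 values were all above the daily median and the ZT15 values all below it. The rise was 0.39 ± 0.07 (adjusted p = 0.0206). Clock was at 0.07, 0.12 and 0.15 at ZT19 and at -0.14, -0.16 and -0.17 at ZT15, a smaller rise of 0.27 ± 0.04 (adjusted p = 0.0151). Npas2, a paralogue of Clock, had a difference of 0.05 ± 0.07 and overlapped. The repressor gene Cry1 was higher at ZT19 by 0.23 ± 0.06 (adjusted p = 0.267), with all 3 ZT19 values above those of ZT15. Nfil3, a bZIP repressor that opposes DBP, was at 0.50, 0.61 and 0.39 at ZT19 and at 0.02, 0.09 and -0.06 at ZT15. Its difference of 0.48 ± 0.10 was the only one above 0 in the output list and missed the threshold (adjusted p = 0.0765). None of the remaining 6 measured core clock genes passed. Cry2 had a difference of -0.08, Bhlhe40 of -0.21, Bhlhe41 of 0.06 and Rora of -0.14, and the casein kinase genes Csnk1d and Csnk1e of -0.06 and 0.03.

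**Figure D2:**
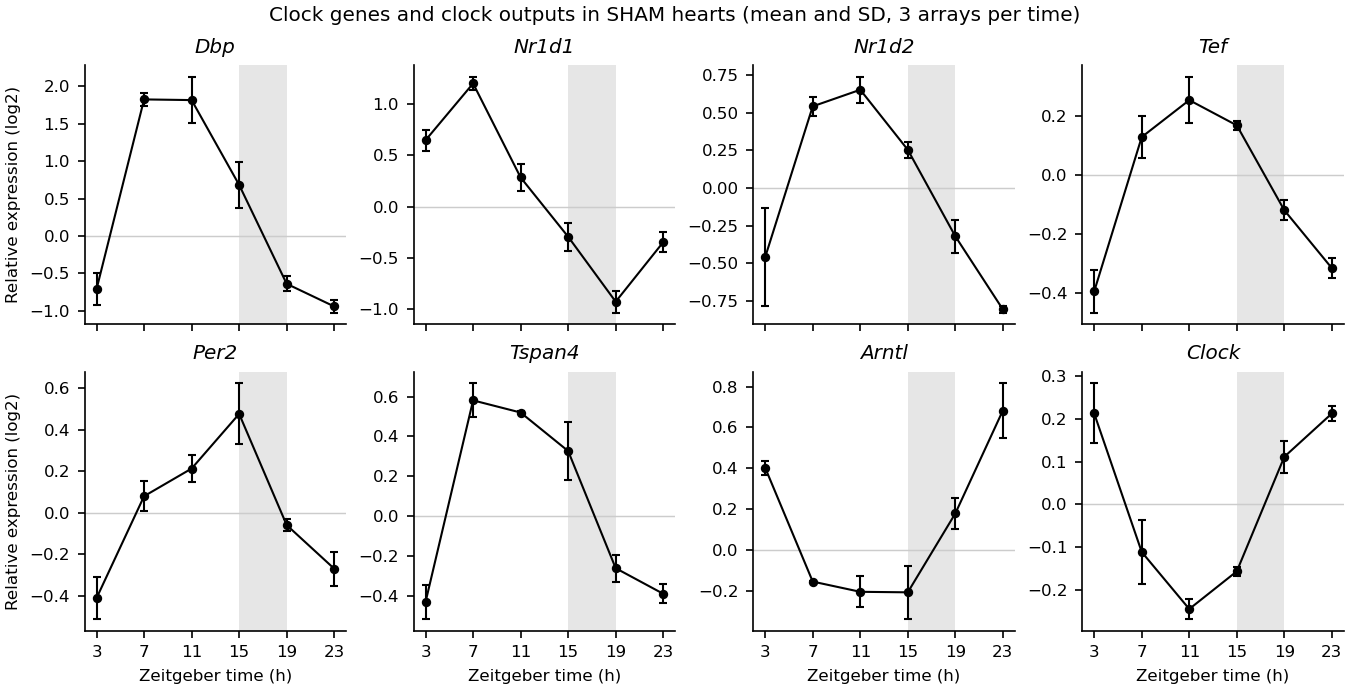
Relative expression (log2, mean and SD of 3 SHAM arrays per time) of 8 clock and clock output genes over the 6 times, in hours of zeitgeber time. The grey band runs over the interval compared, in which Dbp, Nr1d1, Nr1d2, Tef, Per2 and Tspan4 fell and Arntl and Clock rose.

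Among the 27 genes that fell, the mean was highest at ZT15 for 14, at ZT11 for 7 and at another time for 6. These genes were chosen for a high ZT15 and a low ZT19, which favours such a peak. Their lowest mean fell at ZT19 for 7, at ZT23 for 8 and at ZT03 for 11. Of the 9 genes that rose, the mean was lowest at ZT15 for 4, and highest at ZT19 for 4, at ZT23 for 3 and at ZT03 for 2.

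Whether a gene turned at ZT15 was tested as the ZT19 minus ZT15 difference less the ZT15 minus ZT11 difference. This change of slope uses the same ZT15 and ZT19 arrays, so it adds no independent support to the falls. It passed for 8 genes (0.0646% of 12393), with 421 at an unadjusted p under 0.05. For 7 the slope turned downwards. Aqp1, the water channel of endothelium and red cells, had means of 0.11 at ZT11, 0.44 at ZT15 and 0.10 at ZT19 (change of slope -0.67 ± 0.10, adjusted p = 0.0151). Per2 was at 0.21, 0.48 and -0.06 at the same 3 times (-0.80 ± 0.12), and Slc43a3, a transporter of purine nucleobases, at 0.19, 0.53 and -0.02 (-0.89 ± 0.13). Acer2, an alkaline ceramidase gene, stood out from its other times at ZT15 alone, with 0.00, 0.27 and -0.05. Its 2 probe sets disagreed in sign for ZT19 minus ZT15, so its value rests on one of them. Lyve1 and the flavin monooxygenase gene Fmo2 also turned downwards (-1.07 ± 0.19 and -0.65 ± 0.11), although Fmo2 did not pass with the replicate number as a block (adjusted p = 0.0573).

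G0s2, an inhibitor of adipose triglyceride lipase, had the largest change of slope among these 8 genes. Its mean was -0.30 at ZT11, 1.14 at ZT15 and 0.76 at ZT19, and the change was -1.81 ± 0.28 (adjusted p = 0.0151). The ZT19 values were 0.67, 0.83 and 0.77 and the ZT15 values 0.91, 0.86 and 1.64, with replicate 3 well above the others at ZT15. The ZT19 minus ZT15 difference itself, -0.38 ± 0.16, did not pass (adjusted p = 0.988), and after quantile normalization it was 0.0191. Rrad was the 1 gene that turned upwards, as described with the rises. The count of 8 was 1 without SHAM ZT15 replicate 2 and 0 without SHAM ZT15 replicate 3.

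**Figure D3:**
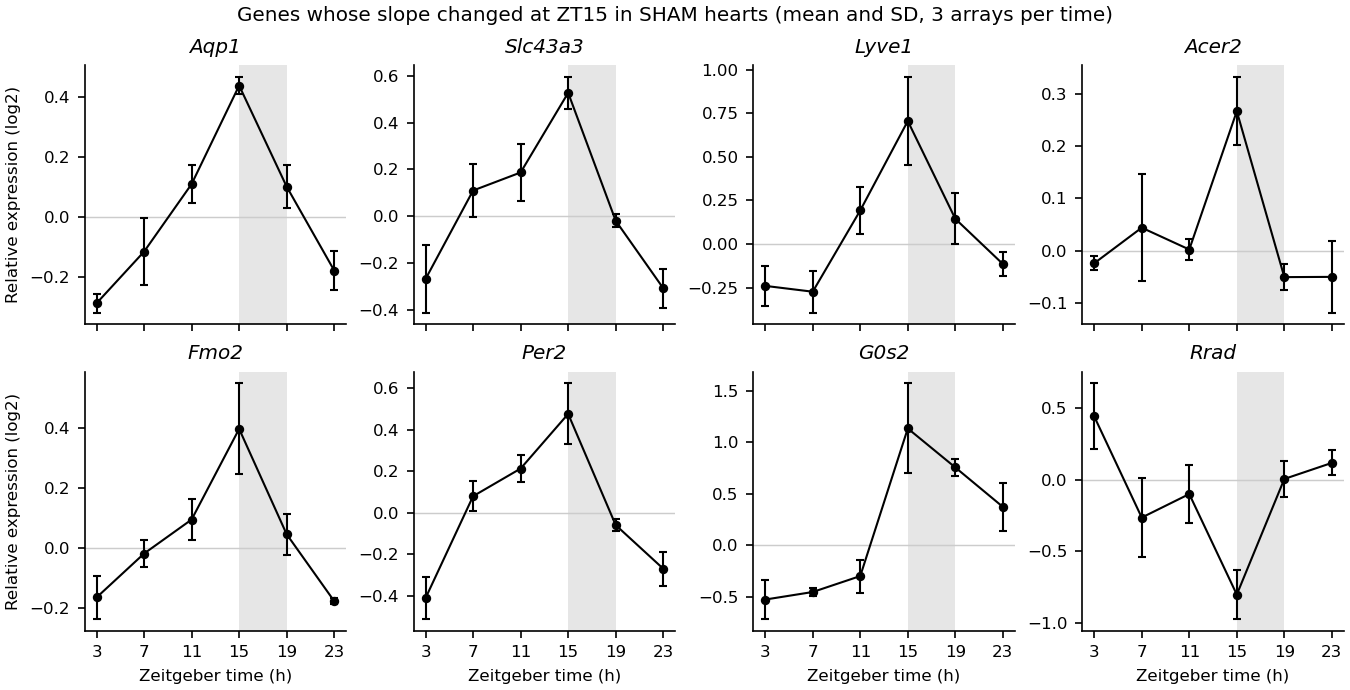
Relative expression (log2, mean and SD of 3 SHAM arrays per time) of the 8 genes whose slope changed at ZT15, over the 6 times in hours of zeitgeber time. The 7 genes that turned downwards have their highest mean at ZT15, with G0s2 at 1.14, and Rrad has its lowest, -0.80, there.

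Of the glucocorticoid target genes, 2 of 20 measured members fell and none rose. All 20 had a difference below 0, with a median of -0.24 beside 0.00217 over all genes. At an unadjusted p under 0.05, 9 were lower, against 2.15% of all genes. The list mean was 0.01, -0.13 and -0.14 at ZT19 and 0.11, 0.34 and 0.19 at ZT15, closest in replicate 1. The list was chosen with earlier results of these data known. Cebpb, a bZIP transcription factor gene, was at -0.38, -0.77 and -0.47 at SHAM ZT19, against 0.29, 0.65 and 0.78 at SHAM ZT15. All 3 ZT19 mice lay below all 3 ZT15 mice, and the fall was -1.12 ± 0.16, a fold of 0.460 (adjusted p = 0.00475). Zbtb16, which encodes the zinc finger factor PLZF, was at -0.21, -0.11 and -0.11 at ZT19 and at 0.34, 0.90 and 0.93 at ZT15. Its fall of -0.87 ± 0.18 lay just inside the threshold (adjusted p = 0.0484). Members that did not pass included the metallothionein gene Mt2 (-0.39 ± 0.10, adjusted p = 0.191), the Kruppel-like factor gene Klf15 (-0.40 ± 0.12, adjusted p = 0.317) and Tsc22d3, the glucocorticoid-induced leucine zipper gene (-0.32 ± 0.10, adjusted p = 0.398).

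In the list of insulin and FOXO signalling, the pathway that couples feeding and fasting to growth and autophagy, 2 of 19 members fell, none rose, and 14 were lower at ZT19. Sesn1, a sestrin that restrains the growth kinase complex mTORC1, was at -0.35, -0.14 and -0.07 at SHAM ZT19, against 0.44, 0.65 and 0.60 at SHAM ZT15, a fall of -0.76 ± 0.14 (adjusted p = 0.0276). Foxo3, a forkhead factor gene of fasting and autophagy, was at -0.14, -0.10 and -0.04 at ZT19 and at 0.16, 0.20 and 0.22 at ZT15. Its 3 probe sets had the same sign, and the fall was small and even across mice, -0.29 ± 0.05 (adjusted p = 0.0124). No member passed in the lists of oxidative phosphorylation (31 measured), the tricarboxylic acid cycle (20), fatty acid oxidation (18), glycolytic enzymes (17) or PPAR alpha targets of fasting (20). At an unadjusted p under 0.05, 0 members were called in the first 4 of these lists and 1, a fall, in the last. Over all genes 4.41% were called at that threshold, which is few members in lists this short. An absence of change in these pathways was not tested. Their medians lay between -0.03 and 0.00.

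Further falls lay in genes of no function list. Xdh, the gene of xanthine dehydrogenase in purine breakdown, was at -0.34, -0.17 and -0.20 at SHAM ZT19, against 0.29, 0.58 and 0.54 at SHAM ZT15 (-0.71 ± 0.13, adjusted p = 0.0206). Slc43a3 was at -0.03, -0.04 and 0.01 at ZT19 and at 0.46, 0.59 and 0.53 at ZT15 (-0.55 ± 0.08, adjusted p = 0.00325). Slc25a33, which encodes a mitochondrial carrier of pyrimidine nucleotides and lies outside the naming rule, fell by 0.48 on the log2 scale (adjusted p = 0.0124). In all 3 genes the ZT19 and ZT15 values were apart.

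In the extracellular matrix list, 2 of 28 members fell, both inhibitors of metalloproteinases, and the list median was 0.02. Timp4, an inhibitor highly expressed in heart, was at -0.39, -0.59 and -0.62 at SHAM ZT19, against 0.25, 0.53 and 0.62 at SHAM ZT15. That is a fall of -1.002 ± 0.15, a fold of 0.499 (adjusted p = 0.00703). Timp3, a matrix-bound inhibitor, was at -0.06, -0.01 and -0.09 at ZT19 and at 0.30, 0.60 and 0.53 at ZT15, a fall of -0.53 ± 0.07 (adjusted p = 0.00303) with 4 of 4 probe sets in the same direction. Both genes were well separated between the times. Tcap, the titin-binding protein telethonin of the Z-disc, was the 1 called gene of 23 in the sarcomere and disc list. It was at -0.35, -0.38 and -0.30 at ZT19 and at 0.20, 0.16 and 0.35 at ZT15 (-0.58 ± 0.11, adjusted p = 0.0253).

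Of the lymphatic endothelium list, 1 of 5 members fell. It was Lyve1, a hyaluronan receptor of lymphatic endothelium and of some resident macrophages, which was at 0.06, 0.06 and 0.31 at SHAM ZT19, against 0.48, 0.66 and 0.98 at SHAM ZT15 (-0.56 ± 0.11, adjusted p = 0.0308). All 6 values were above the daily median. The median of the lymphatic list was -0.03. Its 1 member that was higher at ZT19, by 0.22, had an unadjusted p under 0.05, against 2.27% of all genes, and did not pass. Outside the marker lists, falls were also called for Aqp1 (-0.34 ± 0.06, adjusted p = 0.0151), the retinoid-binding protein gene Rbp7 (-0.51 ± 0.10, adjusted p = 0.0276) and Ramp2, a partner of the adrenomedullin receptor (-0.39 ± 0.07, adjusted p = 0.0206). These 3 lie outside the naming rule. Of 10 general endothelial markers, 8 were higher at ZT19, the list median was 0.09 and none passed. At an unadjusted p under 0.05, 3 were higher, against 2.27% of all genes. The list mean was 0.04, 0.15 and -0.00 at ZT19 and -0.01, -0.01 and -0.11 at ZT15. Kdr, the VEGF receptor gene, was higher at ZT19 by 0.40 ± 0.10 (adjusted p = 0.144). Of 11 macrophage markers none passed, with a median of -0.04. In tissue RNA, fewer cells of a type and less RNA per cell cannot be told apart.

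White adipocyte markers were lower at ZT19 in 8 of 9 members, with a median of -0.23, and none passed at an adjusted or an unadjusted p under 0.05. Their mean was 0.40, -0.41 and 0.15 at SHAM ZT19, against 0.65, -0.37 and 0.63 at SHAM ZT15. Replicate 2 was low at both times and the other 4 arrays were above 0, so the groups overlapped. The part of fat cells in the falls was not tested. Cardiomyocyte markers had a median of 0.02 and means between -0.03 and 0.03 on the 6 arrays, and erythroid markers a median of -0.02.

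Midn, which encodes midnolin, a protein that brings nuclear proteins to the proteasome, was at -0.21, -0.19 and -0.12 at SHAM ZT19, against 0.37, 0.32 and 0.47 at SHAM ZT15 (-0.56 ± 0.08, adjusted p = 0.00303). Herpud1, which takes part in the disposal of misfolded endoplasmic reticulum proteins, was at 0.03, -0.03 and 0.18 at ZT19 and at 0.35, 0.55 and 0.40 at ZT15 (-0.37 ± 0.08, adjusted p = 0.0466, or 0.0607 with the replicate number as a block). It was the 1 called gene of the endoplasmic reticulum stress list and went against the list, where 20 of 24 members were higher at ZT19. Of these members, 7 were higher at an unadjusted p under 0.05, against 2.27% of all genes. The folding factor genes Calr (0.22 ± 0.06, adjusted p = 0.204) and Manf (0.55 ± 0.18, adjusted p = 0.445) were examples that did not pass. The last 5 called falls, outside the naming rule, were those of Fmo2, Acer2, the neuromedin B gene Nmb, Mxd4, which encodes a MAX partner that opposes MYC, and Prkd1, protein kinase D1. Their differences lay between -0.24 and -0.35. With the replicate block Mxd4 did not pass (adjusted p = 0.0529).

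Cytosolic heat shock chaperones were higher at ZT19 in 18 of 22 members, 8 of them at an unadjusted p under 0.05 against 2.27% of all genes, with a list median of 0.09. None passed the adjusted test. The list mean was 0.142, 0.201 and 0.175 at ZT19 and 0.136, 0.0798 and 0.0449 at ZT15, nearly equal in replicate 1. Hsp90aa1, the inducible HSP90 gene, was at 0.28, 0.33 and 0.36 at SHAM ZT19, against 0.09, -0.02 and -0.09 at SHAM ZT15. The times did not overlap, and the difference was 0.33 ± 0.09 (adjusted p = 0.209). Cirbp, a cold-inducible RNA-binding protein gene, was at -0.39, -0.37 and -0.31 at ZT19 and at 0.01, -0.01 and 0.38 at ZT15. Its difference of -0.48 ± 0.11 did not pass (adjusted p = 0.129). No immediate early gene of 28 passed. At an unadjusted p under 0.05, 5 were lower and 0 higher, against 2.15% and 2.27% of all genes. In this list the RNA-decay factor gene Zfp36 came closest (-0.46 ± 0.10, adjusted p = 0.0522). Klf10 had the largest difference, -1.05 ± 0.26 (adjusted p = 0.15, or 0.0263 with the replicate block). Klf10 was at -0.61, -0.18 and 0.01 at ZT19 and at 0.16, 0.74 and 1.48 at ZT15, a wide spread at both times.

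**Figure D4:**
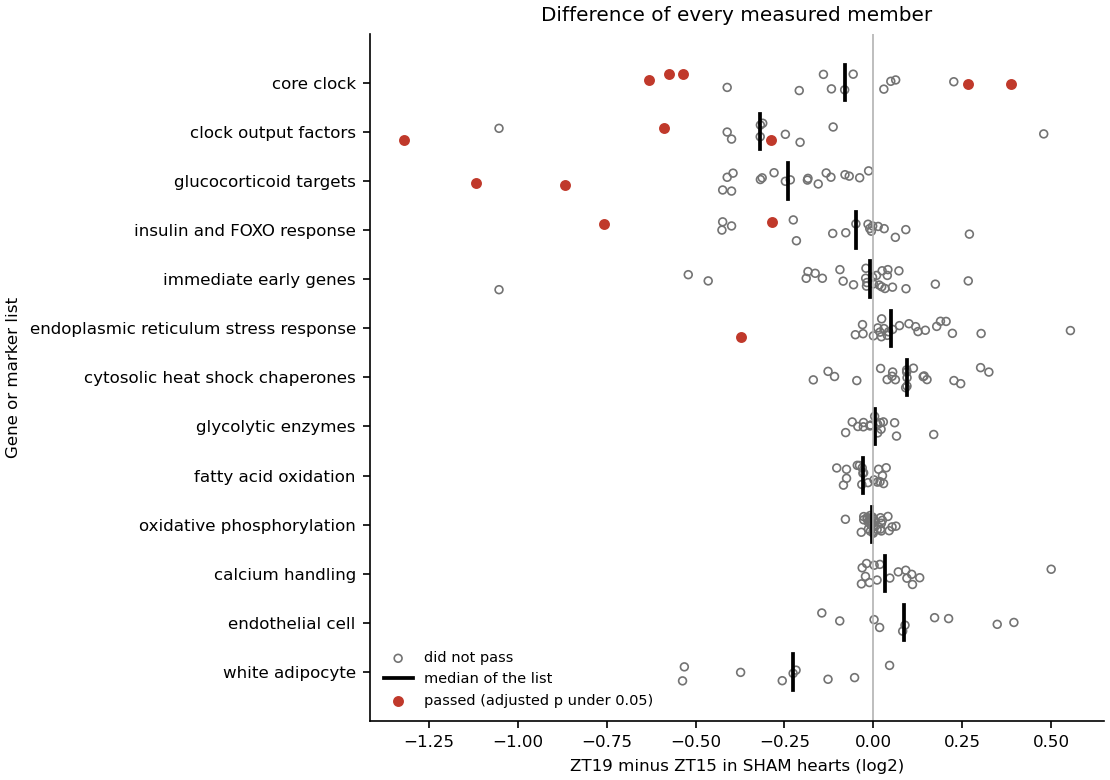
ZT19 minus ZT15 difference in SHAM hearts (log2, x axis) of every measured member of 11 gene lists and 2 marker lists. Filled points passed at an adjusted p under 0.05 and black ticks are list medians, which run from -0.32 for clock output genes to 0.09 for heat shock chaperones.

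Among the 9 rises, Rrad was the largest. It encodes a small GTPase of the RGK family that inhibits L-type calcium channels. Its values were 0.13, 0.00 and -0.12 at SHAM ZT19, against -0.60, -0.91 and -0.88 at SHAM ZT15. The ZT19 mice were near the daily median and the ZT15 mice far below it. The rise was 0.80 ± 0.14, a fold of 1.75 (adjusted p = 0.0155), and its slope turned upwards at ZT15 (1.502 ± 0.24, adjusted p = 0.0156). Cacnb2, the gene of a subunit of those channels, was higher at ZT19 by 0.50 ± 0.10 and did not pass (adjusted p = 0.0548). No member of the calcium handling list (16 measured) passed, and 11 were higher.

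Egln3, a prolyl hydroxylase gene that acts on hypoxia-inducible factors, was at 0.61, 0.55 and 0.35 at SHAM ZT19, against -0.08, -0.05 and -0.16 at SHAM ZT15. It was above the daily median in every ZT19 mouse and below it in every ZT15 mouse. The rise was 0.60 ± 0.10, a fold of 1.51 (adjusted p = 0.0163). It was the 1 called gene of 21 in the hypoxia and angiogenesis list, whose median was 0.02. At an unadjusted p under 0.05, 4 members, Egln3 included, were higher and 0 lower, against 2.27% and 2.15% of all genes. The other rises were Fbxw7, a substrate receptor of a ubiquitin ligase (0.42 ± 0.08), Slc41a3, a gene of a magnesium transporter family (0.42 ± 0.07), Nudt4, an inositol pyrophosphatase gene (0.41 ± 0.07), Lrrc3b (0.33 ± 0.07) and Cxxc5, a zinc finger gene (0.22 ± 0.04). Their adjusted p-values lay between 0.0163 and 0.0417. Slc41a3 had values of -0.04, -0.03 and -0.17 at ZT19 and of -0.51, -0.46 and -0.53 at ZT15. It was below its daily median on all 6 arrays.

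The same interval in TAC hearts was measured on other mice, with values relative to the median of the 18 TAC arrays. The TAC ZT19 minus TAC ZT15 difference passed for no gene (0%) with the spread of the 18 TAC arrays in limma, and 365 genes had an unadjusted p under 0.05. That spread includes TAC ZT03 replicate 3 and TAC ZT23 replicate 1, with means of 1.33 and 1.66 over airway markers. The TAC fit was not rerun without them, and their part in the count was not tested. Of the 36 genes called in SHAM, 34 had a TAC difference of the same sign, 25 of the 27 falls and 9 of the 9 rises. Of these, 11 had an unadjusted p under 0.05 and 13 did not overlap between the TAC times in that direction. Over all genes, 2.17% had TAC ZT19 values all above and 4.23% all below those of TAC ZT15. The 11 stand beside the 365 of all 12393 genes, which count both directions. The share of all genes with the same sign in both operations was not counted, so the 34 have no baseline. The median TAC difference in the SHAM direction was 0.175, against 0.495 in SHAM, and 35 of the 36 were smaller in TAC. The genes were chosen for a large SHAM difference, which by itself makes the SHAM values larger.

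Dbp was at -0.66, -1.22 and -1.14 at TAC ZT19, against -0.31, 0.26 and -0.35 at TAC ZT15, a difference of -0.87 ± 0.27. Rrad was at 0.42, 0.20 and 0.46 at TAC ZT19 and at -1.29, -0.27 and -0.27 at TAC ZT15, a difference of 0.97 ± 0.20, the 1 gene of the 36 that differed more in TAC. The times did not overlap for either gene. Timp4 was at 0.04, 0.27 and -0.26 at TAC ZT19 and at 0.34, -0.26 and -0.03 at TAC ZT15. It overlapped fully, as did Zbtb16, with TAC differences of 0.00 ± 0.28 and -0.02 ± 0.17. Glucocorticoid targets were lower at ZT19 in 10 of 20 members in TAC (median 0.00), and heat shock chaperones in 16 of 22 (median -0.04).

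The difference between the intervals themselves, TAC minus SHAM, passed for no gene (0%) in limma over all 36 arrays, and 261 genes had an unadjusted p under 0.05. Arhgap24, a gene of a GTPase-activating protein, had the smallest p, with a difference of 0.32 in TAC and 0.00 in SHAM (TAC minus SHAM 0.32, 95% interval 0.14 to 0.49). Cebpb differed by 0.88 (0.38 to 1.38), Klf10 by 1.23 (0.51 to 1.95) and Xdh by 0.75 (0.28 to 1.23), the adjusted p being 0.9999 for each. For Timp4 the estimate was 1.003 (0.32 to 1.69). For Dbp it was 0.45 (-0.22 to 1.12), for Per2 0.30 (0.08 to 0.52), for Arntl -0.04 (-0.31 to 0.23) and for Rrad 0.17 (-0.36 to 0.69). These intervals are not adjusted for the number of genes, and no gene was shown to differ between the operations.

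**Figure D5:**
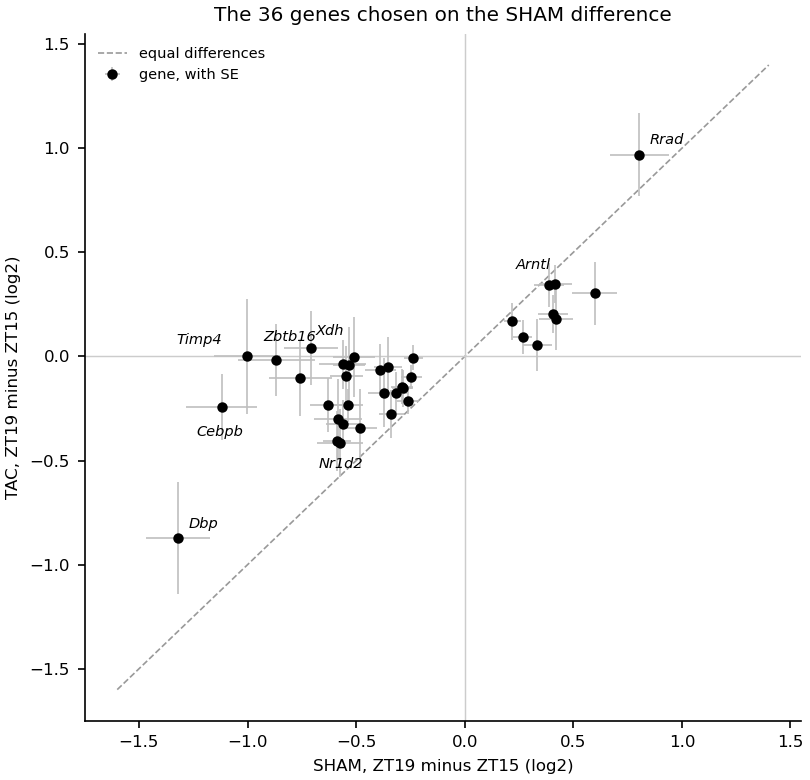
ZT19 minus ZT15 difference (log2) in TAC hearts (y axis) against SHAM hearts (x axis) for the 36 genes called in SHAM, with standard errors and a dashed line of equal differences. Apart from Rrad (0.97 in TAC and 0.80 in SHAM) the points lie nearer to 0 in TAC, as the choice of genes on the SHAM values favours.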

How the data were processed

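RNA from 36 left ventricles (12 groups of 3) was labelled with biotin and hybridised singly to Affymetrix arrays, per the labels' protocols. The authors deposited values on a log scale, read here as log2, for each of 22690 probe sets, with base, summarisation and normalization not given in the sources used here. The deposited values have a median within 5e-07 of 0 over the 18 SHAM and, separately, over the 18 TAC arrays for each probe set, so levels cannot be compared between operations, genes or tissues. Scan dates are not in the files used here, no 2 arrays were identical, and the number of arrays limits the precision.

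The platform annotation named 20393 of the 22690 probe sets with 1 symbol, 691 with several and 1606 with none, and 13 named controls were dropped. Entrez identifiers matched RefSeq for 20351 of 20380 and changed 0 symbols. Probe sets were averaged to 12393 genes, 4956 of which had several, and no filter was set.

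Group means were fitted with limma 3.58.1 in R 4.3.3 (lmFit, eBayes without trend): 6 means over 18 SHAM arrays for ZT19 minus ZT15 and for the change of slope, 12 means over 36 arrays for TAC minus SHAM, and 6 means over the 18 TAC arrays. Benjamini-Hochberg adjustment ran over all genes, with a threshold of 0.05 on the adjusted p. They measure the spread between mice, which the labels call biological replicates. The step was checked on simulated data with independent noise for each gene and array. It recovered 38 of 67 added changes of 0.25, 66 of 67 of 0.5 and 64 of 66 of 1, with 6 false calls. That check does not cover deviations shared between arrays or genes. The alternatives were quantile normalization, median centring, array weights, robust fitting, each probe set alone or that of largest SD, leaving out genes of low SD, a fold of 1.5, other sets of arrays, leaving out each array, and the replicate number as a block. Deviations of same-numbered ZT19 and ZT15 arrays correlated across genes with r = 0.231, 0.265 and 0.258, and other pairs with -0.24 to -0.03. The labels state no pairing, and the main fits ignored the replicate number. A possible pairing entered only in the alternative with the block, and p-values not marked as from the block are unpaired.

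The members and the 41 gene lists and 20 marker lists were chosen with earlier results of these data known. Genes were named by rule: the 15 largest falls and rises among non-overlapping genes that passed (or, with under 10 passing, the 10 smallest p in that direction, as for rises, of which the 9 that passed are called changes), the clock lists, the 4 smallest p of each other function list, and the 10 smallest p of TAC minus SHAM. The 9 called genes outside the rule are named besides. The rule for sequences asked for upstream promoter bases of core clock genes that passed, and the run of Nr1d1 followed it. The run of Arntl lies after a start and so departs from that rule. Those of Tef and Tspan4 were added after the values were seen. Figures were drawn with matplotlib 3.10.9.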

Additional observations from a re-analysis of the deposited data

How the results depend on the processing

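Of the 36 genes called between SHAM ZT19 and SHAM ZT15, 6 passed in each of 28 alternative fits (Dbp, Cebpb, Nr1d1, Tspan4, Midn and Per2). These 28 leave out the fold of 1.5, which Midn and Per2 did not reach, and the single probe sets. The count of called genes was 63 after quantile normalization, 146 with array weights and 61 with the 6 arrays alone. It was 7 with the spread of all 36 arrays and 10 with a fold of at least 1.5. It was 37 for single probe sets (7 rises), and between 10 and 46 without single arrays. Array weights gave 60 rises and 86 falls, and quantile normalization 21 rises and 42 falls, against 9 and 27. With the replicate number as a block, to reflect a possible pairing, 42 genes passed. The change of slope passed for 7 genes and the TAC minus SHAM difference for 0. Of the 36 genes, 34 passed with the block, and Herpud1 and Mxd4 did not. Beyond these, the block changed the ZT19 minus ZT15 call of Klf10, which passed, and the change of slope of Fmo2, which did not, among the genes named here. The change of slope passed for 16 genes with array weights and for 0 to 10 without single arrays. The TAC minus SHAM difference passed for 0 genes in every alternative run for it. For 61 genes followed singly, 1437 values kept their direction and call, 222 lost a call, 43 gained one (array weights and quantile normalization among the settings) and 3 reversed. G0s2 was at 0.0191 after quantile normalization. Csnk1e was at -0.0292 with the probe set of largest SD, and between -0.0175 (without SHAM ZT19 replicate 1) and 0.0572 without single arrays. The causes were not tested.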

Other observations

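Mitochondrial ribosomal protein genes were slightly higher at SHAM ZT19 than at SHAM ZT15 in 21 of 24 measured members, with a median of 0.02, and 0 passed at an adjusted or an unadjusted p under 0.05. All 8 atrial cardiomyocyte markers were higher at ZT19, with a median of 0.09 and means of 0.18, 0.14 and 0.18 at ZT19 and 0.06, 0.00 and 0.15 at ZT15, and none passed. All 6 platelet markers were lower, with a median of -0.05, and none passed. Of the 41 gene lists, 32 held no called gene. Of the 733 measured genes of all 41 lists, 18 were called, against 36 of all 12393 genes (0.29%). The lists were chosen with earlier results of these data known, so this count does not test them.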
